A study of Homo sapiens with 7 samples.

Results

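HOX genes encode homeodomain transcription factors that set the identity of body regions along the head to tail axis, and the genes measured here were those whose symbol in the platform annotation was HOXA, HOXB, HOXC or HOXD followed by a number. Of the 39 such genes in the RefSeq annotation of GRCh38.p14, 28 had at least 1 probe set of their own, out of 19775 genes so measured, with 44 probe sets in all. These were HOXA2, all 10 HOXB genes, all 9 HOXC genes and 8 of the 9 HOXD genes. The other HOXA genes and HOXD3 were not analysed here, and 3 probe sets shared by HOXD3, HOXD4 and a further transcript were left out.

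Total RNA of human dermal fibroblasts of 1 strain, taken at passage 10, was hybridised to 7 Affymetrix arrays. There were 2 control arrays, whose labels give no treatment, and 1 array each of fibroblasts overexpressing progerin, progerin and treated with a farnesyltransferase inhibitor (FTI), prelamin A, prelamin A and treated with FTI, and prelamin A and ZMPSTE24. Lamin A is a protein of the nuclear envelope, made from the precursor prelamin A by the protease ZMPSTE24. In progeria a shortened form, progerin, builds up instead. The inhibitor (L-744832, 10 nM for 48 h) blocks the attachment of the farnesyl lipid. By the methods of the study the lamins were carried by lentiviruses with a CMV promoter made in 293T cells, each virus was put into 2 strains of fibroblasts in duplicate, and transduced cells were sorted for GFP, whereas the labels name 1 strain and do not say which culture each array came from. The title of 1 array treated with FTI leaves out prelamin A, although its source and treatment labels name it. In the comparisons of single arrays p-values measure only the spread between the 2 control arrays, which may be technical. That spread is the gene's own, drawn by limma towards the spread pooled over all genes. Each lone array was assumed to vary as the controls did. In the comparison of all 5 lamin arrays the spread also holds the differences between them.

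The HOX genes lie in 4 clusters on different chromosomes. In each cluster the order of the genes follows the body axis, from the low paralog numbers at the anterior end to the high ones at the posterior end. Polycomb proteins keep HOX genes silent outside their domain, Trithorax proteins keep them active inside it, and retinoic acid turns on the anterior genes in the embryo. Fibroblasts grown from skin retain the HOX pattern of the site of origin, so HOX genes are used as a record of position. Values are MAS 5.0 signals, a background-corrected summary of each probe set on a linear scale, and differences are on the scale of log2(signal + 16). The signals of different probe sets cannot be set against each other, so levels are compared between arrays only.

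The fibroblast label held, since the 11 fibroblast markers measured, among them the collagen genes COL1A1 and COL1A2, read between 882 and 52329 units on every array. The median signal per array was 64.9 to 77, and the 3' to 5' ratio of beta-actin was 1.62 with prelamin A and 1.5 with added ZMPSTE24, against 1.06 to 1.26 on the other arrays. The 2 highest ratios were thus on arrays with prelamin A, and the part of this in the results was not tested. Between the 2 controls 0 of the 19 HOX genes tested were over 2-fold apart, against 9.28% of all 12726 genes tested.

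At a minimum of 100 units on at least 1 array, 19 of the 28 genes were taken as expressed, a cut that does not rank different probe sets: HOXB2 to HOXB7 and HOXB9, every HOXC gene but HOXC12, and HOXD1, HOXD4, HOXD8 and HOXD9. The 9 genes below 100 units on every array were taken as not expressed. They were HOXA2, HOXB1, HOXB8, HOXB13, HOXC12, HOXD10, HOXD11, HOXD12 and HOXD13. HOXD13, needed for the digits, reached 80.9 units with prelamin A, and HOXB8 reached 93.3 on control 2, the member nearest to the minimum from below. Of the expressed genes, 16 were above 100 units on all 7 arrays. The exceptions were HOXC13 (4 arrays, none of them a control), HOXD9 (3 arrays) and HOXD1 (control 1 only, at 128), so that the filter itself ties these genes to the arrays where they were high. Other probe sets of the expressed genes were often dim: of 2 HOXB3 probe sets, for example, 1 was above the minimum.

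**Figure D1:**
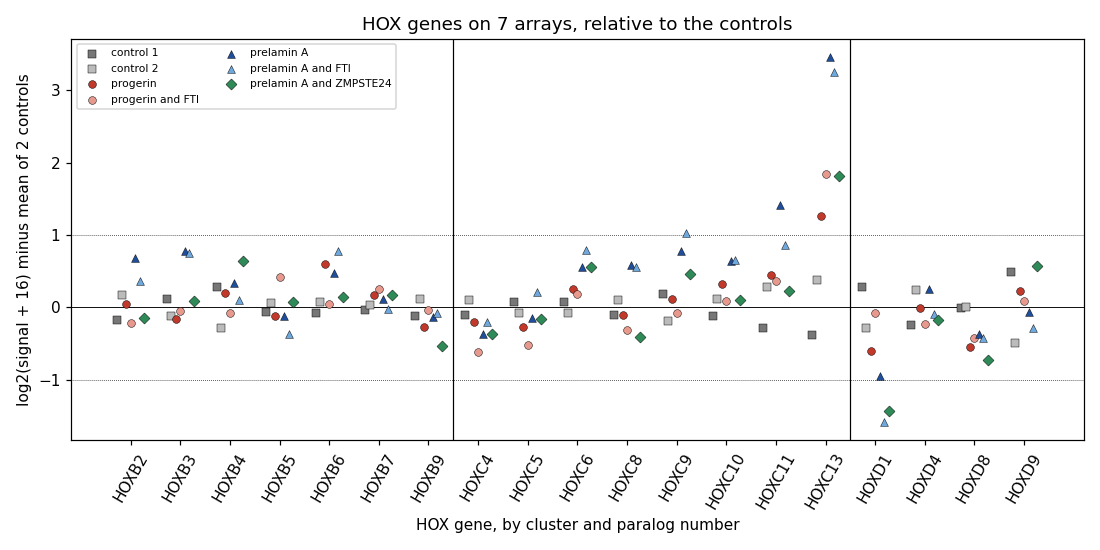
Difference in log2(signal + 16) of each array from the mean of the 2 controls (vertical axis) for the 19 HOX genes at or above 100 units on at least 1 array (horizontal axis, by cluster and paralog number). Each point is 1 array, dotted lines mark a 2-fold difference, and HOXC13 stands highest, at 3.46 with prelamin A, while most genes stay within the dotted lines on all arrays.

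Few HOX genes passed the test. A gene was called when it differed over 2-fold with an unadjusted p under 0.05 from limma. In progerin cells 1 of 19 HOX genes, HOXC13, was called higher and 0 lower, against 3.76% higher and 2.04% lower among all 12726 genes. With prelamin A 2 were called higher, HOXC13 and HOXC11, and 0 lower (all genes 6.29% and 4.02%). The HOX share called lay close to that of all genes in both lines. The median HOX difference was 0.05 with progerin and 0.34 with prelamin A, against 0.01 and -0.02 for all genes tested, and both lines share the controls. No HOX gene had an adjusted p under 0.05 from limma in any of the 9 comparisons at these settings, and under other settings HOXC13 did in prelamin A cells, with a pseudocount of 64 or an intensity trend.

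HOXC13 (chr12:53938831-53946544 of GRCh38.p14), the most posterior gene of its cluster and a regulator of hair and nail keratins, read 15.6 units on control 1, 37.4 on control 2, 83.0 with progerin, 131 with progerin and FTI, 436 with prelamin A, 374 with prelamin A and FTI and 129 with prelamin A and ZMPSTE24. All 5 arrays with a lamin lay above both controls, and the prelamin A arrays without ZMPSTE24 lay above all others. HOXC13 rose by 3.46 on the log2 scale in prelamin A cells (standard error 0.44, adjusted p = 0.127 from limma) and by 1.27 in progerin cells (standard error 0.44, adjusted p = 0.695 from limma). It was 2.19 higher in prelamin A cells than in progerin cells (standard error 0.51, adjusted p = 0.618 from limma), the 1 HOX gene called between the lines, where 3.59% of all genes were called higher and 3.46% lower. In bulk RNA a higher level per cell and a larger share of cells with the transcript cannot be told apart. Both controls are below 100 units, so the size rests on the pseudocount: the prelamin A rise was 4.12 with a pseudocount of 1 and 2.48 with 64. The progerin rise depends on the control, at 0.89 against control 2 alone and 1.65 against control 1 alone, with no test possible, and it lost its call under 5 of the other settings.

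HOXC11 (chr12:53973126-53977643 of GRCh38.p14), a posterior gene of the hindlimb and lower spine, read 259 units on control 1, 391 on control 2, 439 with progerin, 413 with progerin and FTI, 880.0 with prelamin A, 595 with prelamin A and FTI and 377 with prelamin A and ZMPSTE24. The prelamin A array was the highest and control 1 the lowest, while the progerin arrays and the ZMPSTE24 array lay near control 2. The gene rose by 1.42 in prelamin A cells (standard error 0.39, adjusted p = 0.291 from limma), or by 1.14 against control 2 alone and 1.70 against control 1 alone. In progerin cells it differed by 0.44 (standard error 0.39) and was not called.

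Of the other HOXC genes of high paralog number, none was called against the controls. HOXC10, a neighbour of HOXC11 that acts in lumbar patterning, read 2054 units on control 1, 2426 on control 2, 2806 with progerin, 2369 with progerin and FTI, 3493 with prelamin A, 3520.4 with prelamin A and FTI and 2399.9 with prelamin A and ZMPSTE24. HOXC9, a gene of the thoracic region, read 834 units on control 1, 636 on control 2, 792 with progerin, 688 with progerin and FTI, 1269 with prelamin A, 1497 with prelamin A and FTI and 1008 with prelamin A and ZMPSTE24. Both prelamin A arrays without ZMPSTE24 were above both controls for each gene, at 0.64 and 0.79 in prelamin A cells (standard errors 0.33 and 0.36). HOXC8, which patterns the thoracic skeleton, read 182 units on control 1, 214 on control 2, 182 with progerin, 156 with progerin and FTI, 303 with prelamin A, 296 with prelamin A and FTI and 145 with prelamin A and ZMPSTE24. It too was highest on both prelamin A arrays without ZMPSTE24, and lowest with ZMPSTE24.

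**Figure D2:**
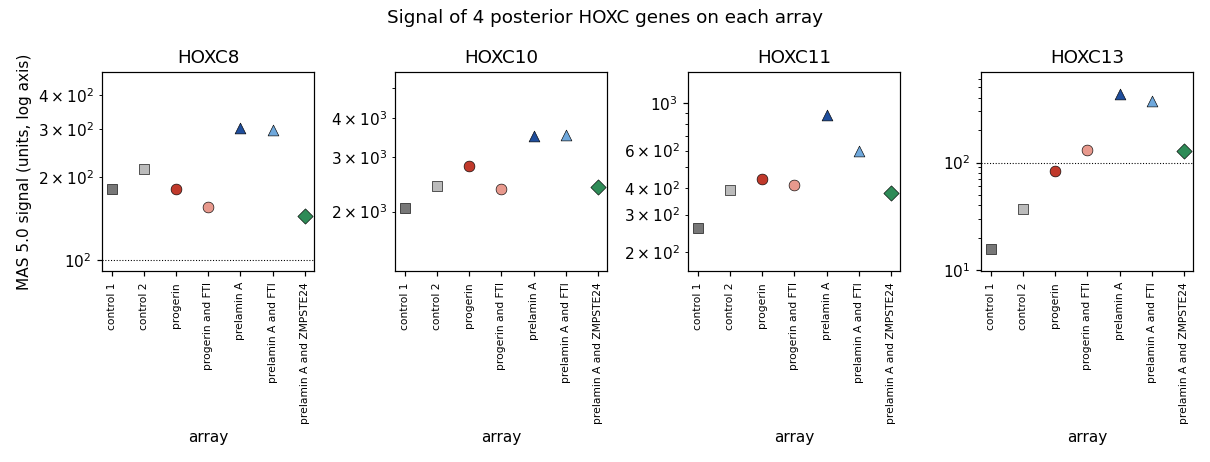
MAS 5.0 signal in units (vertical, log axis, with its own range in each panel) of HOXC8, HOXC10, HOXC11 and HOXC13 on each of the 7 arrays (horizontal). Each point is 1 array and the dotted line marks 100 units. In all 4 panels the prelamin A array and the prelamin A and FTI array lie above both controls, and the ZMPSTE24 array lies lower than either of these.

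At the anterior end of the HOXC cluster the picture differed. HOXC4 read 999 units on control 1, 1156 on control 2, 932 with progerin, 694 with progerin and FTI, 833 with prelamin A, 936 with prelamin A and FTI and 832 with prelamin A and ZMPSTE24, and all 5 lamin arrays were below both controls. HOXC5 read 310.5 and 275 (controls), 239.7 and 199 (progerin without and with FTI), 262 and 343 (prelamin A without and with FTI) and 261 (prelamin A and ZMPSTE24), with 4 of the 5 lamin arrays below both controls. HOXC6, a gene of the upper thoracic region, read 11158 units on control 1, 9992 on control 2, 12586 with progerin, 12049 with progerin and FTI, 15624 with prelamin A, 18329 with prelamin A and FTI and 15558 with prelamin A and ZMPSTE24, and all 5 lamin arrays were above both controls. Set against both controls, HOXC4 was at -0.35 (standard error 0.17, adjusted p = 0.338 from limma) and HOXC6 at 0.47 (standard error 0.20, adjusted p = 0.275 from limma), neither past 2-fold. In the annotation HOXC4, HOXC5 and HOXC6 share their first base and overlap, so a probe set of one may also read transcripts of another. Among the HOX genes HOXC6 and HOXC13 had all 5 lamin arrays above both controls, and HOXC4 and HOXD8 had all 5 below, which is 2 and 2 of 19 HOX genes tested against 11.9% and 12.3% of all genes.

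Across the 8 expressed HOXC genes the difference from the controls grew with paralog number. The minimum of 100 units removed HOXC12, which lies between HOXC11 and HOXC13, and kept HOXC13 through its lamin arrays only. At dim signals HOXC12 did not follow this order. Its controls were 27.7 and 42.7, against 35.9 for prelamin A and 19.7 for progerin, and 3 of its 5 lamin arrays were below both controls. The Pearson r between paralog number and log2 difference was 0.88 with prelamin A, 0.80 with prelamin A and FTI, 0.85 with progerin, 0.82 with progerin and FTI and 0.69 with prelamin A and ZMPSTE24. Without HOXC13 these were 0.91, 0.77, 0.79, 0.76 and 0.39 over 7 genes. The 5 arrays share the controls, and control 2 minus control 1 gave 0.63 (without HOXC13 0.39). The difference between the untreated lamin arrays uses no control, and prelamin A minus progerin gave 0.86. Neighbouring genes share regulatory elements and transcripts and are no independent points, so these values describe the arrays. In the HOXB cluster, over 7 genes, r was -0.77 with prelamin A and -0.05 with progerin.

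**Figure D3:**
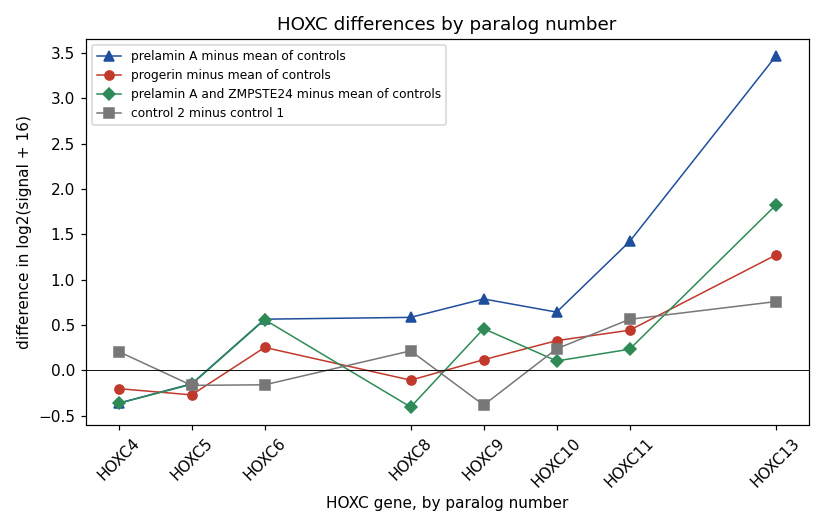
Difference in log2(signal + 16) (vertical axis) of the 8 expressed HOXC genes by paralog number (horizontal axis) for 3 lamin arrays against the mean of the controls and for control 2 minus control 1. Each point is 1 gene on 1 array, or on 1 pair of controls. HOXC12, under 100 units on every array, is not among these genes. The prelamin A line climbs from -0.36 at HOXC4 to 3.46 at HOXC13, and the difference between the controls also climbs, to 0.76.

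None of the 7 expressed HOXB genes was called by its brightest probe set. By that probe set HOXB7, a gene of the trunk, had the narrowest range of the 19 HOX genes. Its spread was 0.28 on the log2 scale over the 7 arrays, from 1982 to 2415 units. Its other probe sets ranged from 1801 to 2163 and from 439 to 710 units. HOXB2, which acts in the hindbrain, read 1431 units on control 1, 1821 on control 2, 1674 with progerin, 1392 with progerin and FTI, 2601 with prelamin A, 2095 with prelamin A and FTI and 1464 with prelamin A and ZMPSTE24. HOXB3, its neighbour, read 1459 units on control 1, 1229 on control 2, 1192 with progerin, 1298 with progerin and FTI, 2308 with prelamin A, 2276 with prelamin A and FTI and 1424 with prelamin A and ZMPSTE24. Prelamin A cells were above both controls for both genes, at 0.68 and 0.78 (standard errors 0.35 and 0.33), and progerin cells were at 0.05 and -0.17. HOXB4, known for its action in blood stem cells, ranged from 264 on control 2 to 518 with ZMPSTE24. HOXB5 read 289 and 314 (controls), 276 and 407 (progerin without and with FTI), 275 and 231 (prelamin A without and with FTI) and 317 (prelamin A and ZMPSTE24), and HOXB6 read 175 and 195 (controls), 289.6 and 191 (progerin without and with FTI), 264 and 329 (prelamin A without and with FTI) and 207 (prelamin A and ZMPSTE24). Of these, HOXB6 had 4 lamin arrays above both controls, and was at 0.61 in progerin cells (standard error 0.32). The other HOXB6 probe set, below 100 units on every array, did not rise. It read 51.6 and 60.6 on the controls and 24.3 to 56.3 on the lamin arrays. The 2 HOXB5 probe sets differed in direction in prelamin A cells, at -0.12 for the brightest and 0.43 for the other.

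HOXB9 (chr17:48621156-48626358 of GRCh38.p14), which patterns the ribs, gave different results at its 2 probe sets. The probe set of higher mean signal, whose suffix (x_at) marks probes that may match other transcripts, ranged from 129 with ZMPSTE24 to 212 on control 2, and differed by -0.27 in progerin and -0.13 in prelamin A cells. The other probe set read 308 units on control 1, 268 on control 2, 79.0 with progerin, 128 with progerin and FTI, 138 with prelamin A, 122 with prelamin A and FTI and 65.5 with prelamin A and ZMPSTE24. Here all 5 lamin arrays lay below both controls. With every probe set tested on its own, it fell by 1.68 in progerin cells (standard error 0.35, adjusted p = 0.496 from limma) and by 1.35 over all 5 lamin arrays (standard error 0.28, adjusted p = 0.0659 from limma), where 2.02% and 1.83% of all probe sets tested were called lower. In prelamin A cells it was at -0.98 (standard error 0.35), just short of 2-fold.

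Of the 4 expressed HOXD genes none was called, although with quantile normalization HOXD1 was called lower in prelamin A cells (-1.06). HOXD1, the anterior end of its cluster, read 128 units on control 1, 81.7 on control 2, 62.3 with progerin, 96.4 with progerin and FTI, 45.7 with prelamin A, 23.7 with prelamin A and FTI and 28.1 with prelamin A and ZMPSTE24. The prelamin A arrays were all lower than both controls, and over the 5 lamin arrays the gene was at -0.92 (standard error 0.41, adjusted p = 0.300 from limma). HOXD1 entered the test through control 1 alone, so the filter itself ties it to a control where it was high. HOXD8 read 601 units on control 1, 604 on control 2, 407 with progerin, 448 with progerin and FTI, 462 with prelamin A, 445 with prelamin A and FTI and 358 with prelamin A and ZMPSTE24. All lamin arrays were below both controls, and the gene was at -0.50 (standard error 0.15, adjusted p = 0.148 from limma). HOXD4, a gene of the cervical spine, read 140.1 and 204 (controls), 168 and 143 (progerin without and with FTI), 206 and 159 (prelamin A without and with FTI) and 148 (prelamin A and ZMPSTE24), with no more than 0.26 between prelamin A cells and the control mean. HOXD9 ranged from 56.4 to 135, and its controls lay 0.98 apart on the log2 scale.

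The windows before the starts of HOXC4 and HOXD8 are shown because both genes were lower on all 5 lamin arrays. They are the 250 bases before the first base of each gene in RefSeq (GRCh38.p14), 5' to 3' on the plus strand, with CG dinucleotides in capitals. The HOXC4 window (chr12:54016638-54016887) is also that of HOXC5 and, by its annotated start, of HOXC6, which was higher on all 5 lamin arrays. The HOXD8 window is chr2:176129455-176129704. By annotation each window overlaps a further gene, LOC124902939 for HOXC4 and LOC100129455 for HOXD8.
HOXC4: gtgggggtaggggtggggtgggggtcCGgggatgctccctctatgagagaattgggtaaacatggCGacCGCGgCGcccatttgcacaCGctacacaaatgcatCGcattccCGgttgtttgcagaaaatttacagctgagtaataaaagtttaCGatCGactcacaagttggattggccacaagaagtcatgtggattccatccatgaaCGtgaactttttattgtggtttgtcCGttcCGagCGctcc
HOXD8: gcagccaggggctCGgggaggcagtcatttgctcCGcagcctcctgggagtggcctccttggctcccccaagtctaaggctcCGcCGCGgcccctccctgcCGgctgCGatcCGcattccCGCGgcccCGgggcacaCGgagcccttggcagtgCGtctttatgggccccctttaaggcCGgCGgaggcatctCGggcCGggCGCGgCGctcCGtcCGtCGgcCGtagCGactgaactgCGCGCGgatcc
The HOXD8 window held 28 CG dinucleotides and 72.4% G and C, and the HOXC4 window 14 and 50.8%, against medians of 11 and 58.0% over 35116 windows of the same length. Neither held TGACAG (bound by MEIS factors; 13% of windows on either strand), AGGTCA (the core of retinoic acid receptor sites; 12.1%) or TGATNNAT (bound by HOX and PBX pairs; 6.47%). Of the 19 expressed genes, 5 had an entry in the promoter table, the others named here being HOXC5, HOXD1 and HOXD4.

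The treatments were compared with the untreated array of the same line. After FTI, 0 HOX genes were called in progerin cells (0 at an unadjusted p under 0.05 from limma; all genes 1.45% called) and 0 with prelamin A (0 at an unadjusted p under 0.05; all genes 2.81%). HOXC13 differed by 0.58 after FTI with progerin and -0.21 with prelamin A (each with a standard error of 0.51). The difference between these FTI effects was -0.79 (standard error 0.73), and 0 HOX genes were called in that comparison (0 at an unadjusted p under 0.05 from limma; all genes 1.84%). The largest FTI difference between the lines was -1.16 for HOXD1 (standard error 0.64), whose signals on the arrays of that comparison were 23.7 to 96.4 units. After FTI, HOXB5 differed by 0.53 and HOXB6 by -0.56 in progerin cells, and HOXD1 by -0.63 in prelamin A cells, none of them called. The other HOXB5 probe set went the other way in progerin cells, at -0.14.

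With ZMPSTE24 added to prelamin A, 1 HOX gene was called lower and 0 higher (all genes 2.85% and 2.18%). HOXC13 fell by 1.64 (standard error 0.51, adjusted p = 0.882 from limma), to 129 units, which is above both controls. HOXC11 was at -1.19 (standard error 0.45, adjusted p = 0.996 from limma), HOXC8 at -0.99 and HOXB2 at -0.82, none of them called. Of the 19 HOX genes 15 had a negative difference with ZMPSTE24, with a median of -0.35 against -0.02 over all genes. All 8 HOXC genes were among them, but HOXC4, HOXC5 and HOXC6 were nearly unchanged, at -0.002, -0.005 and -0.006. The median was -0.43 in HOXC, -0.33 in HOXB and -0.39 in HOXD. The smallest drops included HOXC6, with 15624 units before and 15558 after. Every one of these differences rests on the same prelamin A array. With a shared effect for the 3 treatments and line as a block, 0 HOX genes were called (0 at an unadjusted p under 0.05 from limma; all genes 0.794%), and the largest difference was -0.53 for HOXC11 (standard error 0.32).

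Over all 5 lamin arrays against both controls, 1 HOX gene was called higher and 0 lower (all genes 4.2% and 2.1%). HOXC13 rose by 2.33 (standard error 0.62, adjusted p = 0.110 from limma). Without control 1 it was at 1.95 and the call was lost on its p-value. Without the progerin and FTI array HOXD1, above 100 units on control 1 only, was called as well. The lamin arrays also carried more signal of the 5 measured markers of embryonic kidney cells, the kind in which the viruses were made: their sum was 134 to 176 units on the controls and 486 to 991 on the lamin arrays. INA read 5.20 to 12.8 on the controls and 270.0 to 545 on the lamin arrays, and LIN28B stayed at or below 32.5 on all arrays. PAX2 was lower on both progerin arrays than on both controls, and LIN28B was highest on control 1. On the progerin arrays the higher sum thus came from INA, NEFL and NEFM. Every array with prelamin A had PAX2 above its control levels (71.1 and 58.7), which added to the sum. There PAX2 read 81.3 untreated, 97.9 after FTI and 105.6 once ZMPSTE24 was added. Summed markers of melanocytes (0 of 4 above 100 units), endothelial cells (2 of 5), leukocytes (3 of 5) and pericytes and smooth muscle (2 of 4) were also higher on every lamin array than on both controls, and those of keratinocytes (1 of 5, KRT10) were lower. The endothelial sum was higher through TEK alone (2.19 and 23.5 units on the controls, 167 to 344 on the lamin arrays), whereas PECAM1 overlapped the controls. No pericyte and smooth muscle marker was above both controls on every lamin array. RGS5 was lower with progerin (70.3) than on the controls (185 and 79.1), and CSPG4 lower with prelamin A (324) than on the controls (346 and 406). Among the leukocyte markers CD14 was above both controls on all 5 lamin arrays, and PTPRC, the defining marker, was below 100 units on every array. Their part in the HOXC13 result was not tested. The keratinocyte markers KRT5 and KRT14 were at or below 12.3 units on every array.

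Among noncoding RNAs of the clusters, 7 of 18 listed were tested. HOXB-AS3, which runs antisense across HOXB5 and HOXB6, read 35.9 units on control 1, 27.0 on control 2, 119 with progerin, 82.9 with progerin and FTI, 242 with prelamin A, 293 with prelamin A and FTI and 30.8 with prelamin A and ZMPSTE24. Both prelamin A arrays without ZMPSTE24 were the highest and the ZMPSTE24 array lay between the controls. It rose by 2.45 in prelamin A cells (standard error 0.34, adjusted p = 0.128 from limma) and by 1.51 in progerin cells (standard error 0.34), and fell by 2.46 with ZMPSTE24 (standard error 0.39). Both controls were below 100 units, so the gene entered the test only through lamin arrays and the sizes rest on the pseudocount: with 1 and 64 the prelamin A difference was 2.92 and 1.68, and that of progerin 1.90 and 0.94. Of its 5 probe sets 4 were highest on both prelamin A arrays without ZMPSTE24, and the other, below 100 units on every array, was lower there (6.21 and 8.18) than on the controls (15.9 and 11). HOTAIR, which overlaps HOXC11 in the annotation and is known for its link to Polycomb, read 910.3 units on control 1, 879 on control 2, 1344 with progerin, 1318 with progerin and FTI, 1792 with prelamin A, 1957 with prelamin A and FTI and 1300.3 with prelamin A and ZMPSTE24. All 5 lamin arrays were above both controls, at 0.58 with progerin and 0.99 with prelamin A (each with a standard error of 0.32), short of 2-fold. None of the others (HOTTIP, HOXA11-AS, HOXB-AS1, HOXD-AS2 and HAGLR) was called in any comparison.

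**Figure D4:**
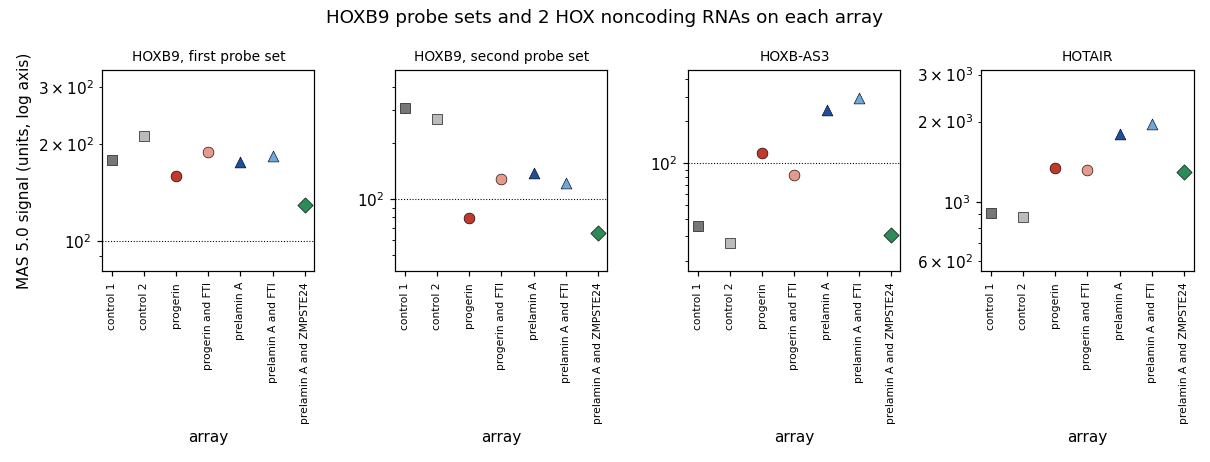
MAS 5.0 signal in units (vertical, log axis, with its own range in each panel) of both HOXB9 probe sets, HOXB-AS3 and HOTAIR on each of the 7 arrays (horizontal). Each point is 1 array and the dotted line marks 100 units. The second HOXB9 probe set falls below both controls on all lamin arrays while the first overlaps them, and HOXB-AS3 is highest on the prelamin A arrays without ZMPSTE24.

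The partners and regulators of the HOX genes are read against the share of all genes called, 3.76% higher and 2.04% lower with progerin and 6.29% and 4.02% with prelamin A. Of 8 PBX, MEIS and PKNOX genes, the cofactors that bind DNA with HOX proteins, 0 were called in any of the 9 comparisons, and their median was -0.06 in progerin and -0.34 in prelamin A cells. Of 27 Polycomb genes, progerin gave 0 calls and prelamin A gave 1, RYBP, which rose by 1.40 (standard error 0.40). EZH2, the Polycomb methyltransferase, and its partner PHF19 were 1.15 and 1.39 lower in prelamin A than in progerin cells (differences of -1.15 and -1.39). In that comparison 3.46% of all genes were called lower and 3.59% higher. EZH2 read 329 and 288 (controls), 504 with progerin and 218 with prelamin A. PHF19 read 580 and 552 (controls), 759 with progerin and 279 with prelamin A. For both genes the progerin array was above both controls and the prelamin A array below both. Of 19 Trithorax genes, progerin cells gave 0 calls, and in prelamin A cells MLLT3 rose by 1.36 and PSIP1 fell by 1.53. The medians of the Polycomb and Trithorax lists were 0.11 and -0.05 in prelamin A cells, against -0.02 for all genes. Of 11 retinoic acid genes, 2 were called higher and 1 lower with progerin, and 3 higher and 1 lower with prelamin A. The retinoic acid binding protein gene CRABP2 read 8489 and 7306 (controls), 3187 and 3826 (progerin without and with FTI), 1563 and 673 (prelamin A without and with FTI) and 3629 (prelamin A and ZMPSTE24), and fell by 1.30 in progerin and by 2.32 in prelamin A cells. ALDH1A3, which makes retinoic acid, rose by 1.28 and 1.32, and the receptor gene RXRA by 1.02 and 1.32. CYP26B1, which breaks retinoic acid down, rose by 2.75 in prelamin A cells (standard error 0.95), with controls of 19.6 and 146 units. It read 414 with progerin and 493 with prelamin A, and every lamin array was above both controls, the lowest at 239.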

How the data were processed

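The authors deposited a linear intensity, the MAS 5.0 signal, for each of 54675 probe sets, made from Affymetrix Human Genome U133 Plus 2.0 arrays by background correction, summarisation and scaling of each array to a common target. Scaling sets each array's overall level, so a change shared by most genes would not be seen. The S-score test of the study's methods works on single probes and was not run. Precision is limited by how many arrays there are.

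The 62 array controls were left out. Probe sets with 1 gene in the platform annotation (41091; 1801 had several and 11721 none) took current symbols and coordinates by gene ID from RefSeq of GRCh38.p14, where 41037 were found. A probe set was kept if any array reached 100 units, and each gene was represented by its brightest by mean. The 12726 genes were tested with limma 3.58.1 (R 4.3.3, matrixStats 1.5.0) after adding 16 units and taking log2. The fold change of a dim gene is understated on this scale. The first 7 comparisons came from a model of 6 conditions with 1 residual and 3.50 prior degrees of freedom, the 5 lamin arrays against the controls from a model with 5 and 2.61, and the shared effect of treatment from one with line as a block (3 and 2.55). Adjusted p-values are from Benjamini-Hochberg over all genes tested, and the fits were tested on simulated data. The text names every HOX gene, with signals on each array for those called or among the 4 largest differences of a comparison and for some others, and from each other list the called members of largest difference. The members and lists were chosen with earlier results of these data known. Tried as alternatives were an intensity trend, 2 other call rules, pseudocounts of 1 and 64, median centring, quantile normalization, testing each probe set, a filter on the mean (100 units) or none, and leaving out each array.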

Additional observations from a re-analysis of the deposited data

Results flagged for a closer look

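HOXC13 differed between the lines. It was 2.19 higher on the log2 scale with prelamin A (436 units) than with progerin (83.0 units), in a direct test between the lines with 1 array each (adjusted p = 0.618 from limma), and this call held under the 10 alternatives that gave it a test, but not at an adjusted p under 0.05. Among these alternatives, leaving out an array outside the comparison could not change the difference of 2.19, and the spread still came from the controls. HOXC13 entered the test only through lamin arrays, the prelamin A array among them, while the progerin array was under 100 units. The filter thus ties the gene to the arrays where it was high. The size rests on the pseudocount, at 2.38 with 1 and 1.77 with 64.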

How the results depend on the processing

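No paired analysis was possible because only the control arrays carry replicate numbers, so no number is shared between groups. The shared effect of treatment had the line as a block. At an adjusted p under 0.05, 0 HOX genes were called in any comparison with the settings of the report, so the calls of 1 (progerin), 2 (prelamin A), 1 (ZMPSTE24), 1 (prelamin A against progerin) and 1 (all 5 lamin arrays) were lost. HOXC13 in prelamin A cells did pass that threshold with a pseudocount of 64 (adjusted p = 0.0362 from limma) and with an intensity trend (adjusted p = 0.0357 from limma), and over its alternatives the adjusted p was 0.0357 to 0.397. With quantile normalization prelamin A gave 3, as HOXD1 was called lower (-1.06). The progerin call of HOXC13 was also lost (0 called) with quantile normalization, pseudocounts of 1 and 64, no filter and an intensity trend, at unadjusted p-values from limma of 0.0546 to 0.0705, while testing every probe set gave 2 with HOXB9. The cause was not tested. With no filter, which adds the 9 dim genes, prelamin A gave 4 (with HOXA2 and HOXD13), FTI 1 in progerin (HOXB13) and 1 in prelamin A cells (HOXC12), ZMPSTE24 2 (with HOXD11) and prelamin A against progerin 2 (with HOXD13), all at signals under 100 units. ZMPSTE24 gave 0 with a pseudocount of 1, and 2 with HOXC11 at a pseudocount of 64, a mean signal of at least 100, an intensity trend or by fold alone, and fold alone gave 1 (HOXD1) for the difference of the FTI effects. Over all 5 lamin arrays every probe set gave 2, with HOXB9, and leaving out an array gave 0 (control 1) to 2 (progerin and FTI). The call of HOXC13 in prelamin A cells held under the 11 alternatives that gave it a test. Among them, leaving out an array outside the comparison could not change the difference of 3.46, and the spread still came from the controls. No median HOX difference moved by more than the control spread of 0.17, and no HOX call changed direction. Without a control the 6-condition model has no residual spread, so those comparisons gave values only.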

Other observations

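Other homeobox and T-box factors of position were also measured. Of 28 tested, 1 was called higher and 3 lower with progerin, and 5 higher and 3 lower with prelamin A, against 3.76%, 2.04%, 6.29% and 4.02% of all genes in the same order, with medians of 0.07 and 0.29. DLX2, a homeobox gene of the jaw and forebrain, read 60.8 units on control 1, 51.2 on control 2, 13.7 with progerin, 2.98 with progerin and FTI, 963 with prelamin A, 652 with prelamin A and FTI and 82.9 with prelamin A and ZMPSTE24. It was 3.77 higher in prelamin A cells (standard error 0.33), or 4.09 and 3.10 with pseudocounts of 1 and 64, and dropped by 3.31 once ZMPSTE24 was added. In progerin cells it was at -1.27, or -1.95 and -0.63 with those pseudocounts. The 5 arrays other than prelamin A and prelamin A with FTI were all under 100 units. DLX3, a homeobox gene of skin and bone, read 13.1 and 6.82 (controls), 27.8 and 7.28 (progerin without and with FTI), 184 and 114 (prelamin A without and with FTI) and 33.2 (prelamin A and ZMPSTE24), and stood 2.96 above the controls with prelamin A (4.14 and 1.75 with those pseudocounts). DLX2, DLX3 and IRX2 were below 100 units on both controls and entered the test only through arrays with a lamin. The arrays that reached 100 units thus had to lie above the controls, and the sizes rest on the pseudocount. IRX2 read 11.3 units on control 1, 28.7 on control 2, 373 with progerin, 378 with progerin and FTI, 202 with prelamin A, 222 with prelamin A and FTI and 207 with prelamin A and ZMPSTE24, and over the 5 lamin arrays it was 3.01 higher (standard error 0.33, adjusted p = 0.00545 from limma), or 3.80 and 1.99 with pseudocounts of 1 and 64. IRX3 read 6739.7 units on control 1, 13447 on control 2, 1582 with progerin, 1311 with progerin and FTI, 1619 with prelamin A, 1727 with prelamin A and FTI and 1859.6 with prelamin A and ZMPSTE24, and fell by 2.55 (standard error 0.27, adjusted p = 0.00493 from limma). The other Iroquois genes tested were not called. IRX1 read 353 to 466 on the controls and 519 to 791 on the lamin arrays, and IRX5 read 682 to 1489 and 501 to 816. LHX9, a homeobox gene of the limb and gonad, read 12235 and 9943 (controls), 1571 and 1932 (progerin without and with FTI), 300.1 and 779 (prelamin A without and with FTI) and 606 (prelamin A and ZMPSTE24), and fell by 3.68 over the same arrays (standard error 0.66).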
